A study of Homo sapiens with 2 samples.

Results

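The RAS-ERK pathway carries growth factor signals from receptors at the cell surface to the nucleus, and 39 of its genes were compared between Seg-1 cells given an siRNA against FGF-AS and Seg-1 cells given a negative control siRNA. The genes were chosen by name and fall into 11 pathway components and 28 immediate early and feedback genes. All probe sets annotated to exactly 1 of these symbols were taken, which gave 90 probe sets for 36 genes out of 41091 single-symbol probe sets for 19775 genes. NRAS and BRAF, a RAS GTPase and a RAF kinase, and RASA1, an inactivator of RAS, had no such probe set and were not analysed here.

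RNA was hybridised to Affymetrix U133 Plus 2.0 microarrays, where each transcript is read by a set of short oligonucleotide probes, the probe set. Seg-1 was thought to come from an esophageal adenocarcinoma, but the labels identify it with the lung line H460, which they call an adenocarcinoma line and which is more widely classed as a large cell carcinoma. One group was transfected with a negative control siRNA that has no match among known genes, and the other with an siRNA against FGF-AS, an RNA transcribed antisense to the gene of fibroblast growth factor 2 (FGF2). Both were reverse transfected with a lipid reagent at siRNA concentrations between 25 and 200 nM, and both were harvested after 72 hours. Each group holds 1 array, so no difference below has a replicate check, no p-value is given, and differences between cultures cannot be told apart from an effect of the siRNA.

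In this pathway, ligand-bound receptors recruit the adaptors SHC1 and GRB2, which bring the exchange factor SOS1 to RAS. Active RAS switches on RAF kinases, these phosphorylate the MEK kinases (MAP2K1 and MAP2K2), and MEK phosphorylates ERK (MAPK3 and its partner). ERK induces immediate early genes such as EGR1 and FOS within the first hour of a stimulus, and it also induces its own brakes: the DUSP phosphatases, which strip phosphate from ERK, and the Sprouty and SPRED proteins, which act on the RAS and RAF steps. The level of these brakes in steady growth is commonly used as a transcript readout of ERK output. FGF2, whose locus the siRNA addresses, is a ligand that feeds into this pathway.

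The values are deposited signals in arbitrary units. A log2 ratio compares FGF-AS siRNA with control siRNA after 6.1, the 25th percentile of all signals, was added to both values. Folds are on the same scale, and the offset shrinks the ratio of dim genes. A gene's brightest probe set stood for it, judged by the mean over the arrays, and the gene counted as measured when this mean reached the median over probe sets, 23.85. A minimum of 145.2, the 75th percentile, was the stricter alternative. In all, 12352 genes and 35 of the 39 members were measured. The 36th, NF1, an inactivator of RAS, had a single probe set of its own (211095_at), which read 11.1 on the control array and 3.2 on the FGF-AS siRNA array, below the minimum on both arrays. Probe sets annotated to NF1 together with another gene were left out.

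The error at hand is how far probe sets for the same gene disagree. This probe set SD of the log2 ratio was 0.49 over 6155 genes, 0.36 among brighter probe sets (3050 genes) and 0.58 among dimmer ones (2365 genes). It covers neither cultures nor hybridisations. The target gene NUDT6, which encodes FGF-AS, read 376.9 and 104.5 on its brighter probe set, 27.7% of control. FGF2 itself read 676.2 and 911.8 on one probe set (log2 ratio 0.43) and 326.7 and 338.8 on the other (0.05). Of 6 epithelial markers 5 were measured, led by the keratin genes KRT8 and KRT18, with summed signals of 14185.7 and 13735.9. The epithelial cadherin gene CDH1 was the dim exception at 0.9 and 18.4. Of the 6 lung epithelium markers 3 were measured: SFTPB (110.8 and 98), NAPSA (31.9 and 44) and SFTPC (14.7 and 59.1). SFTPC reached the minimum only through the FGF-AS siRNA array. NKX2-1, a marker of lung adenocarcinoma, was not among the 3, at 24.9 and 11.8. These dim and mixed markers do not settle the adenocarcinoma label. Summed signals of marker lists of other cell types ran from 12.6 to 235.5 and were similar on both arrays. Of these, 3 of 5 leukocyte, 2 of 5 fibroblast and 2 of 5 intestinal and glandular markers were measured, and no squamous ones. Being measured therefore does not show that a cell type is present. In bulk RNA, fewer cells of a state and less RNA per cell cannot be told apart.

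Immediate early genes lay on both sides of 0, and 4 of them are shown here by the 250 bases upstream of their start site, since they are textbook serum-responsive genes and differed in direction. EGR1 and IER2 were higher with FGF-AS siRNA, and FOS and JUNB were lower. The lower values rest on 1 probe set per gene. FOS (-0.48) lay within the SD of 0.58 for dim probe sets, and JUNB (-0.23) within that of 0.36 for bright ones. The sequences are RefSeq's, build GRCh38.p14, plus strand, at chr5:138465229-138465478 for EGR1, chr19:13150161-13150410 for IER2, chr14:75278578-75278827 for FOS and chr19:12791236-12791485 for JUNB. Capitals mark the CArG box, which serum response factor binds, TGACG, the core of the cAMP response element, and TATAAA, each searched on both strands.
EGR1: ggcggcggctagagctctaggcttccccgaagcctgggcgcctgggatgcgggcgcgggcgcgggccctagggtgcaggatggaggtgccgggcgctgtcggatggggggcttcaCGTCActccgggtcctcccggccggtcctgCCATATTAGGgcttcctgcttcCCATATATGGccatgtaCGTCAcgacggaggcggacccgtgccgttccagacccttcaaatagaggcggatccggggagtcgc
IER2: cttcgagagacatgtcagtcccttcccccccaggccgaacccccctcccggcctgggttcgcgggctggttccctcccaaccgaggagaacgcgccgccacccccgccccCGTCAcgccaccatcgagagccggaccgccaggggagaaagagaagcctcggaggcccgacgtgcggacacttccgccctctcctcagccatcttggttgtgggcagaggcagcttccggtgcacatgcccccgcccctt
FOS: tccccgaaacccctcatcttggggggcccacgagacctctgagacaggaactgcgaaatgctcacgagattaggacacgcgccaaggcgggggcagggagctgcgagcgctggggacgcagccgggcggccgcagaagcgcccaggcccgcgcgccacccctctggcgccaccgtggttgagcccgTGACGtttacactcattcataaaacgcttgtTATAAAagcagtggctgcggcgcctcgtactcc
JUNB: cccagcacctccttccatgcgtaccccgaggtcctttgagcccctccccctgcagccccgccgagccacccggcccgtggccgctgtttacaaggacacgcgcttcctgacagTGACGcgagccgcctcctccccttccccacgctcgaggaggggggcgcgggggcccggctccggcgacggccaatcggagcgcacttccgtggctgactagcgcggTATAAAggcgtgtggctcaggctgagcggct

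EGR1 held 2 CArG boxes, at 105 to 96 and at 83 to 74 bases upstream, and 2 copies of TGACG. IER2 held 1 copy of TGACG and no CArG box in this window. FOS and JUNB each held 1 copy of TGACG, and a TATAAA whose first base lay 33 and 31 bases upstream. They too held no CArG box in this window, and sequence further upstream was not searched for any of the 4 genes. No motif overlapped another. Of 35116 such windows in the reference table, 1.16% held a CArG box, 21.2% held TGACG and 10.7% held TATAAA. Members had 47 windows for 30 genes. Of these genes 1 (EGR1) held a CArG box in at least 1 window, 17 held TGACG and 4 held TATAAA, against 1.44%, 24.9% and 13% of the 27305 genes in the table. Members with several start sites were counted once, but several windows give a gene more room for a motif. Of the 47 member windows, 1 held a CArG box, 20 held TGACG and 4 held TATAAA, beside the shares of all windows given above.

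Across the whole module, 22 of the 35 measured members had a log2 ratio above 0 and 13 below, with a median of 0.11. Over all measured genes, 48.1% were above 0 and the median was -0.02. At least 1.5-fold higher were 7 members (HRAS, SPRY4, EGR1, IER2, IER3, EPHA4 and PHLDB2), against 7.96% of all measured genes. EPHA4 counted through 229374_at, which reached the minimum only through the FGF-AS siRNA array. Its probe set at the minimum on both arrays, 206114_at, gave -0.05. At least 1.5-fold lower was 1 member (IL1RAP), against 9.52%. No member reached 2-fold on its brightest probe set, against 4.77% of all genes in either direction. EGR1, at 0.97, reached it with an offset of 1 (1.00) and under median centring (1.03), quantile normalization (1.08) and loess (1.07), and PHLDB2, at 0.93, did under quantile normalization (1.04) and loess (1.02). Just inside the 1.5-fold limit (0.58 on the log2 scale) lay IL1RAP at -0.62 and SPRY4 at 0.65, and just outside lay FOS at -0.48 and MAPK3 at 0.48.

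That count rests in part on the choice of probe sets. Probe sets whose names end in _s_at or _x_at hold probes that match several transcripts. SPRY4, EGR1, IER3 and PHLDB2 had no other kind of measured probe set. Without such probe sets 4 of 28 members were at least 1.5-fold higher (HRAS, IER2, EPHA4 and ETS2), against 8.67% of all genes so measured. EPHA4 fell short of 1.5-fold with a larger offset (24.3) or with the mean over probe sets, and IL1RAP fell short with that offset and under median centring, quantile normalization and loess. Under quantile normalization the 7 higher members were the same and none was lower, while over all genes 1346 were higher and 829 lower, against 983 and 1176 as deposited.

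**Figure D1:**
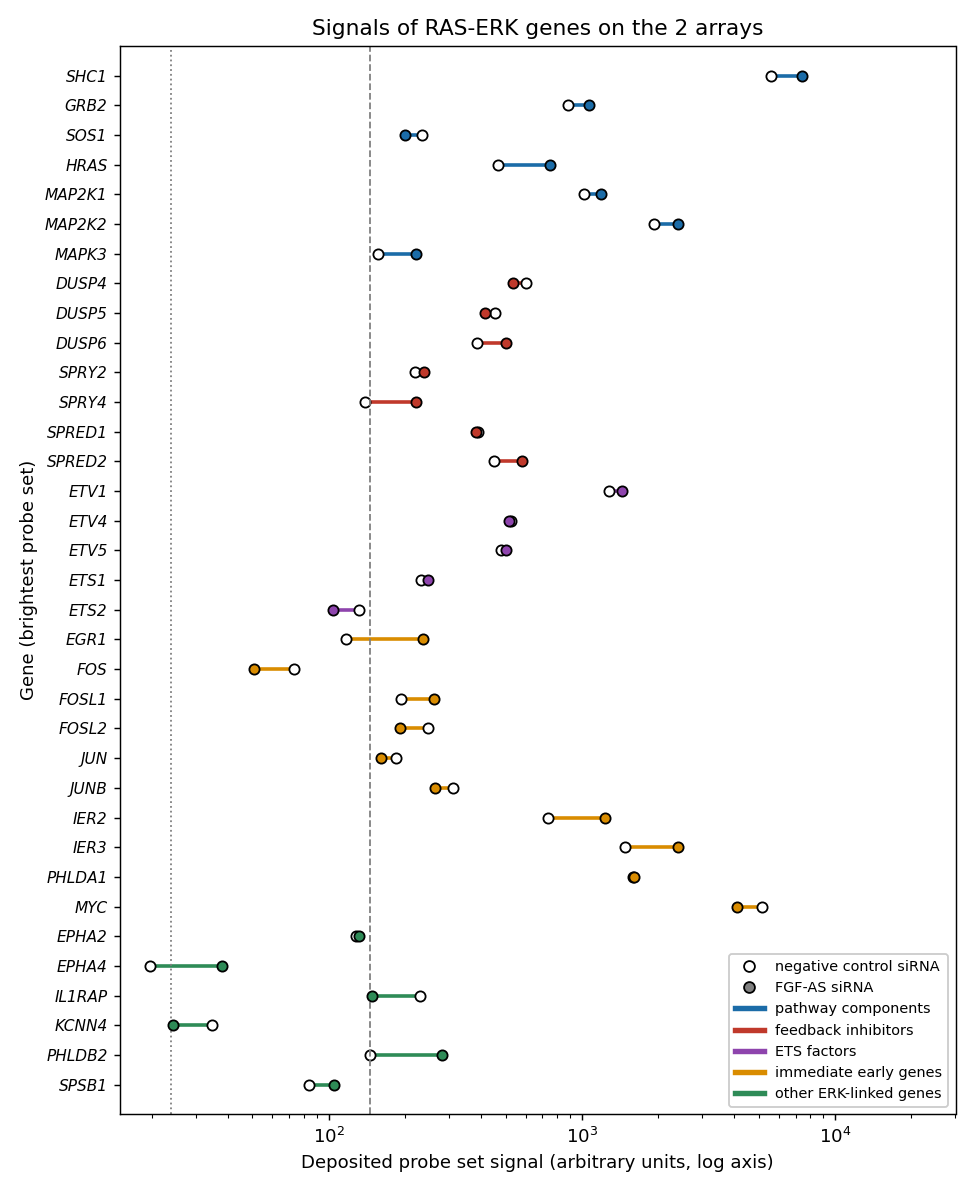
Deposited signal (arbitrary units, log axis) of the brightest probe set of each of the 35 measured members with control siRNA (white) and FGF-AS siRNA (filled, coloured by role). The dotted line is the signal minimum (23.85) and the dashed line the stricter minimum (145.2). EGR1, PHLDB2 and the dim EPHA4 show the longest shifts to the right, while SPRED1, ETV4 and PHLDA1 barely shift.

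The pathway components leaned upward on their brightest probe sets. Of 7 measured, 6 were above 0, with a median of 0.31 (1.24-fold) and a range from -0.21 to 0.68, against 48.1% of all genes above 0. The 21 measured components among further pathway genes did not share this lean, with 9 above and 12 below 0 and a median of -0.06. HRAS, the RAS GTPase of this set, read 467.6 on the control array and 750.4 after FGF-AS siRNA (its only probe set, 212983_at), 1.60-fold higher and at percentile 94.1 of measured genes. It was the only component past 1.5-fold, and its log2 ratio of 0.68 exceeded the SD of 0.36 for bright probe sets.

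The kinases came next. MAPK3, which encodes ERK1, read 157.3 and 221.1 on its only probe set (212046_x_at), a log2 ratio of 0.48. MAP2K1, which encodes MEK1, read 1019.5 and 1197.2 (0.23). MAP2K2, which encodes MEK2, read 1938.5 and 2412 on its brighter probe set (0.31), but 391.1 and 386.2 on 213490_s_at (-0.02). The MEK ratios were therefore smaller than the probe set SD, and the ERK1 ratio was somewhat larger than the SD of bright probe sets.

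For the adaptors and SOS1, the result depended on the probe set. SHC1, an adaptor of activated receptors, read 5602.5 and 7401.9 on 214853_s_at (0.40) and 2006.7 and 2005.3 on 201469_s_at, where the arrays were level. GRB2, which couples receptors to SOS1, read 886.4 and 1067.8 on 223049_at (0.27) and 511.3 and 472.9 on 215075_s_at (-0.11). SOS1, the exchange factor that loads RAS with GTP, was the component below 0, at 233.9 and 200.9 on its brightest probe set (-0.21). Its 3 other measured probe sets gave -0.25, 0.37 and 0.81, the last (230337_at, 18.2 and 36.4) measured only through the FGF-AS siRNA array. Over all 14 measured component probe sets, 8 were above 0 and 6 below, with a median of 0.25, against 43.2% above 0 and a median of -0.07 over 23222 probe sets. Without 230337_at of SOS1, 7 of 13 were above 0 and the median was 0.23. With the mean over a gene's probe sets the component median was 0.20.

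The immediate early and feedback genes as a set showed no common shift. Of 28 measured, 16 were above 0 and 12 below. The median was 0.06 (1.04-fold) beside an SD of 0.44 among the genes, against an SD of 0.48 over all measured genes. Over their 64 measured probe sets, 27 were above 0 and 37 below, with a median of -0.12. At least 1.5-fold higher were 11 of these probe sets and 9 were lower, where all probe sets gave 7.53% and 15.1%. The higher ones include 229374_at and 227449_at of EPHA4, which reached the minimum only through the FGF-AS siRNA array and so had to be higher. The lower ones include 210233_at of IL1RAP, which reached it only through the control array. Single genes of the set differed more than its median did.

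**Figure D2:**
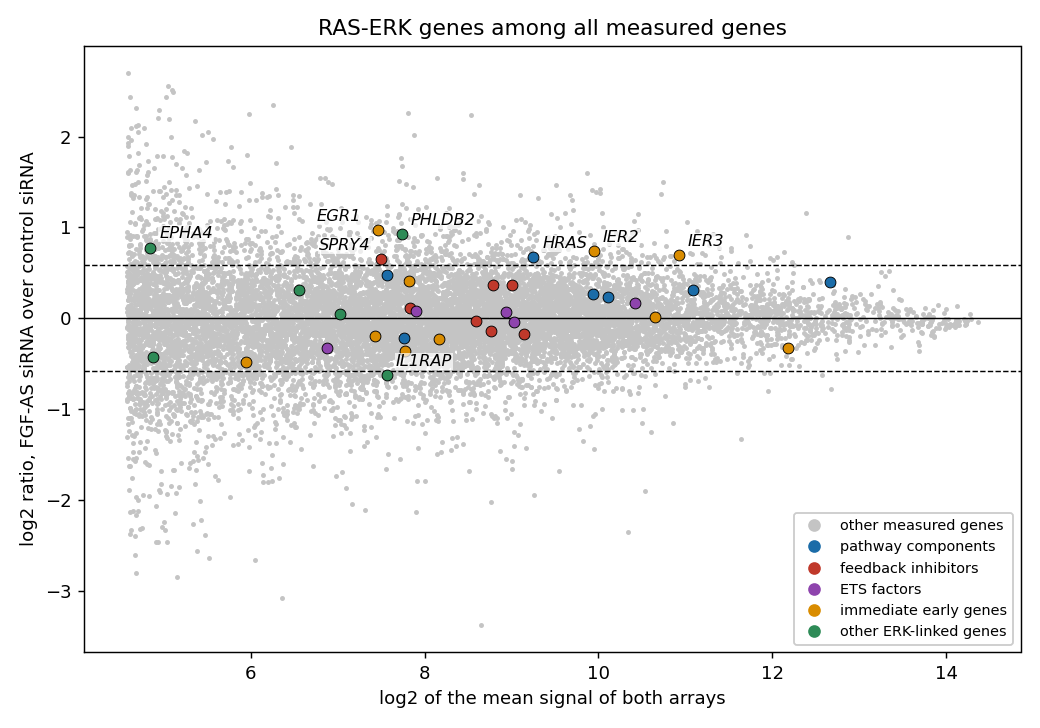
Log2 ratio of FGF-AS siRNA over control siRNA against the log2 of the mean signal for the 12352 measured genes (grey) and the 35 members (coloured by role). Dashed lines mark 1.5-fold; the 7 members above the upper line and IL1RAP below the lower one are named, and EGR1 is the highest member at 0.97.

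Among the feedback inhibitors, 4 of 7 were above 0, and the median was 0.11. DUSP6, the cytoplasmic ERK phosphatase whose transcript follows ERK activity closely, read 386.1 and 500.6 on 208892_s_at, 358.2 and 474.3 on 208891_at, and 187.6 and 196 on 208893_s_at. It was higher on all 3, with log2 ratios of 0.37, 0.40 and 0.06. The first 2 were about as large as the SD of bright probe sets. SPRY4, a Sprouty inhibitor, read 139 and 222 on its only probe set (0.65, 1.57-fold).

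The other inhibitors did not share that pattern. DUSP4, a nuclear ERK phosphatase, read 600.7 and 533.1, 564.6 and 569.1, and 353.8 and 570.7 on its 3 probe sets, so that 2 were near level (-0.17 and 0.01) and 226034_at was higher (0.68). DUSP5, another nuclear ERK phosphatase, read 454.2 and 413.1 (-0.13). SPRY2, a second Sprouty, read 220 and 237.7 (0.11). These differences were smaller than the probe set SD except for 226034_at.

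The SPRED genes, which encode membrane-bound inhibitors of RAF activation, split within themselves. SPRED1 read 390.6 and 383.1 on its brightest probe set (-0.03), 87.4 and 71.9 on 235074_at (-0.26), and 113.4 and 45.1 on 244439_at (-1.22). The sign of the first turned positive under median centring, quantile normalization and loess. SPRED2 read 448.6 and 578.6 on 212458_at (0.36) but 56.5 and 33.5 on 212466_at (-0.66). On brightest probe sets 3 of the 4 Sprouty and SPRED genes were above 0, both Sprouty genes among them. Of their 7 measured probe sets 3 were above 0, and the 4 below were those of SPRED1 and 1 of SPRED2.

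ETS factors are transcription factors that ERK activates or induces. All 5 lay within 1.25-fold of control on their brightest probe sets, with a median of 0.07. ETV4 and ETV5, PEA3 factors that follow FGF signals in many tissues, read 527.9 and 514.5 (-0.04; above 0 under the 3 scalings named for SPRED1) and 480.3 and 503.4 (0.07). ETV4's second probe set gave -0.21, and the other 3 measured ones of ETV5 gave -0.15, 0.48 and -0.24. Neither gene differed by more than the SD of 0.49 on any measured probe set. The 0.48 of ETV5 (230102_at, 157.5 and 221.5) did exceed the SD of 0.36 for bright probe sets, as MAPK3 did.

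ETV1, the third PEA3 factor, depended on the probe set. Its brightest read 1286.5 and 1447 (0.17), while 206501_x_at read 427.7 and 259.6 (-0.71) and 217053_x_at read 386.4 and 207.7 (-0.88). The remaining pair gave -0.42 and -0.36, so 4 of 5 were lower. ETS1 read 231.8 and 245.9 on its brightest probe set (0.08), and its dim ones gave -0.42 and -0.13. ETS2 read 131.6 and 103.8 on 201329_s_at (-0.33) and 80.4 and 134.7 on 201328_at (0.70), so its probe sets went opposite ways.

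The immediate early genes had no common direction. Of 10 measured, 5 were above 0 and 5 below, at a median of -0.09. Their SD was 0.53, against 0.48 over all measured genes. EGR1, a zinc finger transcription factor with the CArG boxes shown above, read 117.6 and 236.3 on 227404_s_at, 98.4 and 166.2 on 201694_s_at, and 28.8 and 36.1 on the dim 201693_s_at. All 3 were higher with FGF-AS siRNA, with log2 ratios of 0.97, 0.72 and 0.27. EGR1 was the member with the highest brightest-probe-set ratio (1.96-fold, percentile 97.8 of measured genes).

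Both IER members were also higher, while IER5, a relative outside the set, was not (892.1 and 720.9; -0.31). IER2, a nuclear immediate early protein gene, read 738.4 and 1233.6 on its only probe set (202081_at; 0.74, 1.67-fold). IER3, a stress- and ERK-linked survival gene, read 1479.9 and 2398.4 on its only probe set (201631_s_at; 0.69, 1.62-fold). Both ratios exceeded the SD of 0.36, and both genes stayed between 0.68 and 0.79 over all settings that measured them.

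The AP-1 subunits, which pair into the transcription factor that JUN and FOS proteins form, were mostly lower by small amounts among the members. Grouped by function after their values were seen, 4 of 5 genes and 11 of 12 measured probe sets were below 0, with a median over probe sets of -0.27. Above 0 were 1 gene and 1 probe set, against 48.1% of all genes and 43.2% of all probe sets. Of the 12 probe sets, 5 belong to FOSL2 and 4 to JUN, so they are not independent. The 4 genes stayed below 0 under each scaling tried, but each scaling reuses the same 2 arrays and gives no separate support. JUND, an AP-1 subunit outside the 39 genes, was above 0 on its 3 measured probe sets (1913.5 and 2307.2 on the brightest; 0.27, 0.11 and 0.15), and with it 4 of 6 genes and 11 of 15 probe sets were below 0. FOS read 73 and 50.5 on its only probe set (-0.48), less than the SD of 0.58 for dim probe sets. FOSL2, a FOS relative, read 246.7 and 191.5 on its brightest probe set (-0.36), and its 4 others ran from -0.63 to -0.11. JUN read 184.4 and 160.4 on its brightest probe set (-0.19), and on 201465_s_at it read 63.9 and 35.5 (-0.75). Its remaining pair gave -0.65 and -0.20.

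JUNB, a JUN relative, read 310.5 and 264.3 (-0.23). The ratios of JUNB and of JUN's brightest probe set (-0.19) were smaller than the SD of 0.36 for bright probe sets. That of FOSL2 (-0.36) was about as large. FOSL1, which encodes FRA1 and accumulates under lasting ERK activity, was the AP-1 gene above 0, at 194 and 260.1 (0.41). No AP-1 gene passed 1.5-fold on its brightest probe set. The promoters shown above therefore belong to genes at percentile 97.8 (EGR1), 95.2 (IER2), 12.8 (FOS) and 28.6 (JUNB) of all measured genes.

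MYC, the growth-promoting transcription factor, read 5152 and 4120.5 on its only probe set (-0.32). PHLDA1, an ERK-induced pleckstrin homology protein gene, had 6 measured probe sets, of which the brightest was level (1599.5 and 1612; 0.01). Its 225842_at read 231.9 and 520.4 (1.15), the only member probe set at least 2-fold higher, against 1.94% of all measured probe sets, while 217999_s_at gave 0.44 and the other 3 gave -0.16 to -0.09. PHLDA1 was thus level on one probe set and over 2-fold higher on another.

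**Figure D3:**
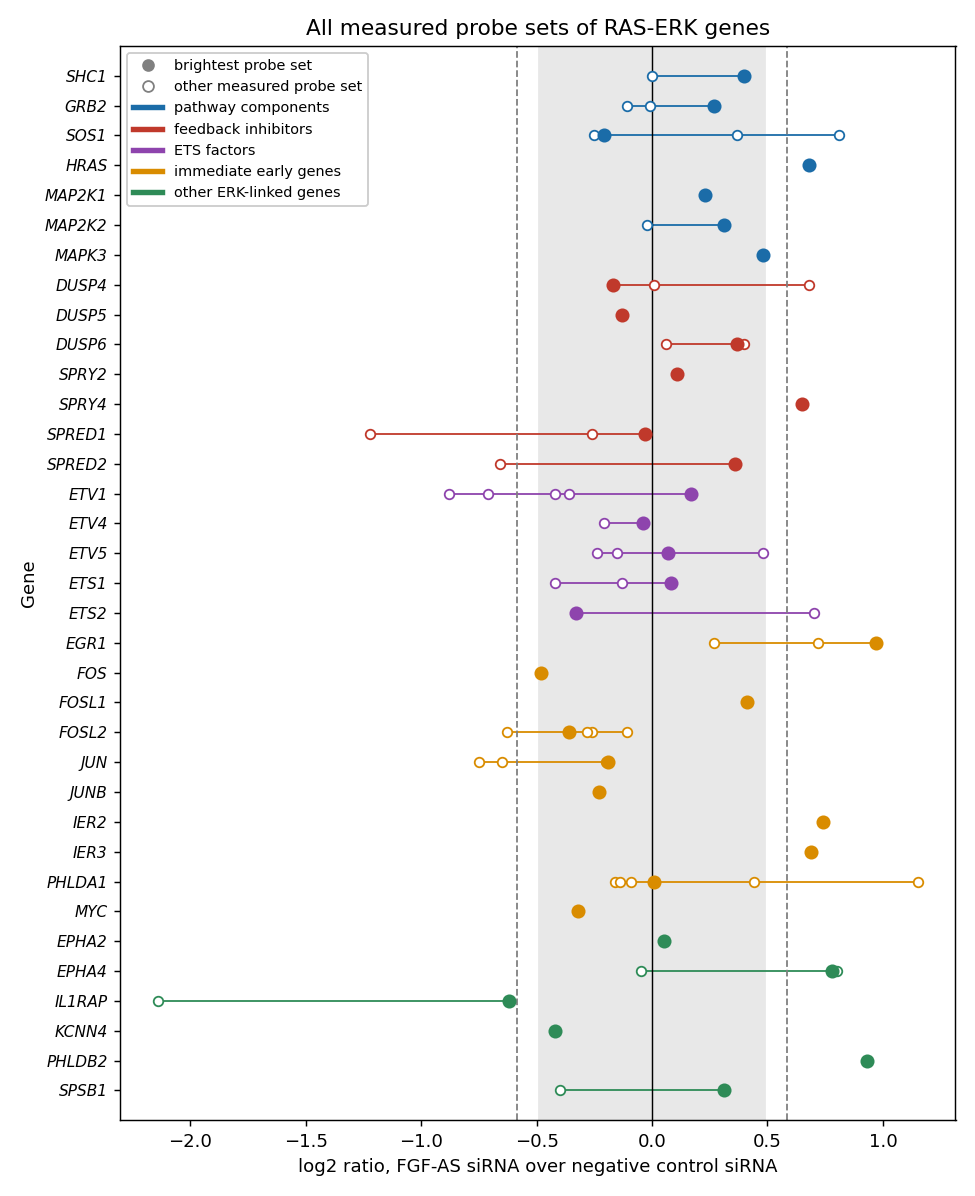
Log2 ratio of FGF-AS siRNA over control siRNA for all 78 measured probe sets of the 35 members, with the brightest filled and the others open. The grey band is the SD of a single ratio (0.49) on either side of 0 and dashed lines mark 1.5-fold; EGR1 and DUSP6 lie wholly right of 0, FOSL2 and JUN wholly left, and SOS1, ETV1, ETS2 and PHLDA1 spread across it.

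The other ERK-linked genes held the remaining members past 1.5-fold. PHLDB2, which encodes a cytoskeletal adaptor with a pleckstrin homology domain, read 145.2 and 281.7 on 225688_s_at (0.93, 1.90-fold). Its 4 other probe sets were below the minimum and all read lower with FGF-AS siRNA, from 21.5 and 9.1 on 238419_at down to 1.2 and 0.6 on 1554778_at. EPHA4, an ephrin receptor gene, was dim: 229374_at read 19.6 and 38 (0.78), 227449_at 16.5 and 33.3 (0.80) and 206114_at 28 and 26.9 (-0.05). Its brightest probe set reached the minimum only through the FGF-AS siRNA array, so that probe set had to be higher there to be counted. By 206114_at, which reached the minimum on both arrays, the gene would have been counted at -0.05.

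IL1RAP, the interleukin 1 receptor accessory protein gene, was lower on both probe sets. It read 230.6 and 147.9 on 205227_at (-0.62, 1.54-fold lower) and 125.6 and 23.8 on 210233_at (-2.14), the latter at least 2-fold but just under the minimum on the FGF-AS siRNA array. Together with 244439_at of SPRED1 this made 2 member probe sets at least 2-fold lower, against 5.33% of all measured probe sets. EPHA2, an ephrin receptor gene that ERK induces, read 128 and 132.3 (0.05). KCNN4, a calcium-activated potassium channel gene, was dim at 34.7 and 24.3 (-0.42). SPSB1, a substrate receptor of a ubiquitin ligase, read 83.6 and 105 (0.31) on one probe set and 80.8 and 59.8 (-0.40) on the other.

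Disagreement between probe sets was common, both in this module and over all genes. The shares below depend on how many probe sets a gene has, which was not matched. Of the 20 members with several measured probe sets, 13 had them on both sides of 0, against 50.8% of 6155 such genes. DUSP6 and EGR1 were wholly above 0, against 17.7%, and SPRED1, ETV4, FOSL2, JUN and IL1RAP were wholly below, against 31.4%. In 7 of the 20 (SOS1, SPRED1, SPRED2, ETV1, ETS2, PHLDA1 and IL1RAP) the highest and lowest probe sets differed by at least 2-fold, against 20.8%. The largest such gaps on the log2 scale were 1.52 for IL1RAP and 1.30 for PHLDA1. All 4 components with several probe sets (SHC1, GRB2, SOS1 and MAP2K2) had them on both sides of 0. For SHC1 and MAP2K2 the lower one was about level, at 99.9% and 98.7% of control.

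Further genes of the pathway were listed by function. Of 63, 59 had a single-symbol probe set and 53 were measured. Their median was -0.06, with 23 above and 30 below 0. At least 1.5-fold higher were 4 of them and 5 were lower, near the 7.96% and 9.52% of all measured genes. Among the higher were PLAUR, the urokinase receptor gene, on all 3 probe sets (154.7 and 320.4 on the brightest; 1.02, 1.44 and 1.35), and ERF, an ETS repressor that ERK exports from the nucleus (155 and 252.4; 0.68, and 0.96 on the other). DUSP9, an ERK phosphatase gene (36.8 and 64.8; 0.72), and MRAS, a RAS relative (29.3 and 48.2; 0.62), were dim.

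The 5 lower ones included 2 further brakes and an immediate early gene. DUSP1, a nuclear MAP kinase phosphatase, read 1151.6 and 741.2 on its brightest probe set (-0.63), with -1.08 and 0.48 on the others. SPRED3, a relative of SPRED1, was dim at 51.5 and 19.9 (-1.15) and reached the minimum only through the control array, so it had to be lower to be counted. KLF2, a zinc finger factor gene, read 155.3 and 75.1 (-0.99). RRAS, a RAS relative, read 125.1 and 65.6 (-0.87), and CIC, a repressor of PEA3 genes that ERK inactivates, read 212.5 and 139.4 (-0.59). Of the AP-1 genes outside the module, JUND is given above and FOSB was below the minimum at 6.3 and 4.5.

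**Figure D4:**
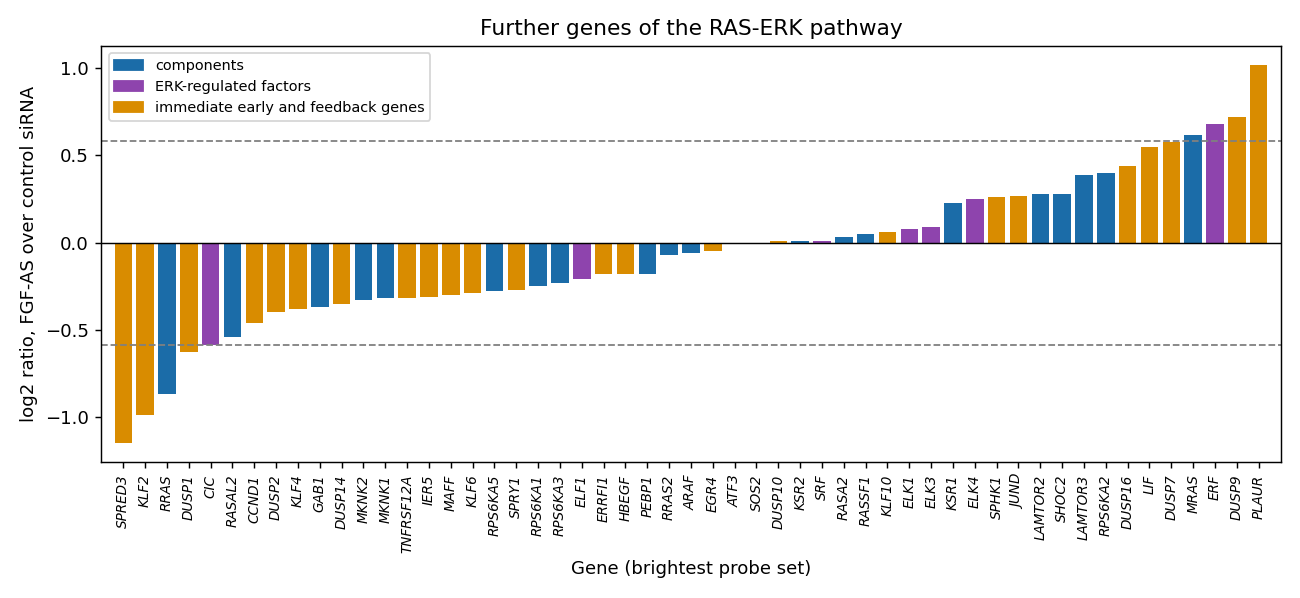
Log2 ratio of FGF-AS siRNA over control siRNA on the brightest probe set of the 53 further pathway genes that were measured, in order of their value and coloured by role. Dashed lines mark 1.5-fold; PLAUR, DUSP9, ERF and MRAS lie above the upper line and SPRED3, KLF2, RRAS, DUSP1 and CIC below the lower one.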

How the data were processed

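RNA of 1 control siRNA and 1 FGF-AS siRNA culture was measured on 1 array each. The deposited table gives a linear intensity per probe set. GCOS and MAS5 are the tools listed in the submitters' processing notes, without versions. The scaling between the arrays is unknown, and detection calls were not used. The array medians were 25.5 (control) and 23.1. Control probe sets (62) were left out. Symbols came from GEO's platform annotation, updated by gene identifier through RefSeq (GRCh38.p14), and a probe set listing more than 1 symbol was not assigned to a gene.

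Log2 ratios, the signal minimum and the 1.5-fold and 2-fold sizes were computed in Python 3.11.15 with pandas 2.3.3, without further scaling. The calculation was tested on simulated data. Alternatives were an offset of 1 or 24.3, the stricter or no minimum, median centring, quantile normalization, loess (span 0.3, statsmodels 0.14.6), the mean over probe sets, and no _s_at or _x_at probe sets. All 39 members were described, along with further pathway genes past 1.5-fold, NUDT6 and FGF2. Members, lists and rules were chosen with earlier results of these data known. Promoter motifs were searched in RefSeq windows. The number of arrays limits the precision.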

Additional observations from a re-analysis of the deposited data

How the results depend on the processing

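The component median stayed between 0.20 and 0.37 over the 9 alternatives, and that of the immediate early and feedback genes between 0.00 and 0.14, against 0.31 and 0.06 as reported. Members at least 1.5-fold higher numbered 6 or 7, except for 4 of 28 without _s_at and _x_at probe sets, of which 3 were among the 7 reported. Over all genes the share this much higher ran from 5.75% (stricter minimum) to 12.7% (no minimum). The stricter minimum gives no separate support for EGR1 and SPRY4, which reached it only through the FGF-AS siRNA array. Members at least 1.5-fold lower numbered 0 with the larger offset, median centring, quantile normalization and loess, and 2 (IL1RAP and NF1) with no minimum. The share of all genes this much lower ran from 5.75% to 14.6% under the same 2 settings. Of 302 single-gene values, 5 moved by more than the SD of 0.49: SPRED2 (-0.15), ETV1 (-0.44), ETS2 (0.19) and IL1RAP (-1.38) with the mean over probe sets, and ETS2 (0.70) without _s_at and _x_at probe sets. Many of the 302 could not move. Both changes of the minimum kept each gene's probe set, and median centring shifted all genes alike. With the mean over probe sets, only the 20 members with several measured ones could move, and 4 did. No member past 1.5-fold changed sign. With 1 array per group, no replicate could be left out. No paired analysis was possible because each group holds 1 array. The causes were not tested. Signals near the minimum cannot be told from background.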
